A study of Mus musculus with 8 samples.

Results

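The genes described here are glutamate and GABA receptor subunit genes of the lateral ganglionic eminence (LGE) of mouse embryos, together with Gad1 and Gad2, which encode the glutamate decarboxylases that make GABA. Membership was set by symbol alone (Gria, Grik, Grid, Grin, Grm, Gabr, Gabbr and Gad names), which gave 45 of the 15705 genes in the table, and 40 of them are described. The family itself was chosen with earlier results of these data known. The LGE was dissected at E18.5, just before birth, and its polyadenylated RNA was sequenced. There were 4 libraries of conditional knockouts (cKO), labelled Dlx1-Cre; Isl1 flx/flx, and 4 of controls, labelled Isl1 flx/flx. Both groups carry the floxed Isl1 alleles. Dlx1-Cre, a recombinase driven from a gene of forebrain GABA lineages, is labelled in the cKO alone, so Cre itself and the deletion cannot be told apart. Neither litter nor sex is labelled, and whether a library holds 1 embryo is not stated, so p-values measure only the spread between these libraries.

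Glutamate opens AMPA, kainate and NMDA receptor channels and also acts through slower metabotropic receptors coupled to G proteins. GABA opens GABA-A chloride channels, assembled from alpha, beta and further subunits, and acts on the metabotropic GABA-B receptor. The striatal projection neurons that the LGE produces release GABA themselves and receive glutamate from cortex and thalamus. In the mature striatum they carry GABA-A receptors at synapses, usually with a gamma subunit, and outside synapses, where alpha4 with delta, or alpha5, gives a steady inhibitory current.

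Values are the authors' adjusted read values per gene, rounded to whole numbers, and levels between genes are compared as RPKM, which is per kilobase of gene length. Isl1, the targeted gene, had values of 4930, 5377, 5618 and 5971 in the libraries labelled cKO and 3777, 3692, 4186 and 3517 in those labelled control, and was higher in every library labelled cKO (log2 fold change 0.53 ± 0.06 SE, limma adjusted p = 0.000338). This value covers the whole gene and the deleted part is not given, so it does not check the deletion. Here cKO and control mean the libraries so labelled, and each direction below rests on those labels. The summed RPKM of 11 microglial markers was higher in every cKO library, at 82.8 to 98.7 against 51.5 to 58.8 in the controls. Of these, 9 were called higher, meaning a limma adjusted p under 0.05 over all tested genes. That is 81.8% of the list, against 2.87% of all tested genes. The sum of 7 markers of interneurons born in the medial ganglionic eminence was lower, at 111 to 145 against 162 to 194. Of these 7, 3 were called lower and 1 higher, 57.1% in all, against 6.66% of all tested genes. The 6 oligodendrocyte lineage markers summed to 39.8 to 41.9 in the cKO and 42.2 to 48.7 in the controls, and none was called. For 7 astroglial markers the sums overlapped, at 1290 to 1550 in the cKO and 1500 to 1620 in the controls. Of these, 1 was called higher (14.3%, against 2.87% of all tested genes). The sums of 9 vascular markers also overlapped, at 84.9 to 101 in the cKO and 82.7 to 89.5 in the controls, with none called. For 13 LGE projection neuron markers the sums overlapped, at 796 to 848 in the cKO and 833 to 884 in the controls. However, 7 of these markers were called, 4 higher and 3 lower, with log2 fold changes from -2.93 to 0.34. That is 53.8% of the list, against 6.66% of all tested genes. The 3 choroid plexus and ependyma markers summed to 129 in control replicate 1, against 9.65 to 11.9 in the cKO and 8.22 to 12.6 in the other controls. The 9 markers of pallial glutamatergic neurons, a cell type of cortex, summed to 4.18 in cKO replicate 4 and 1.73 in control replicate 3. These were the lowest sums of each group, against at most 17.5 in the other cKO and 13.6 to 19.4 in the other control libraries. Whether this RNA came from neighbouring cortex was not tested. No marker of these lists was at 0 in any library. What part these cell populations have in the results below was not tested, and in bulk tissue fewer cells of a type and less RNA per cell cannot be told apart.

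In the cKO, 6 of the 40 genes fell and 2 rose. Those that fell were the GABA-A genes Gabrd, Gabra4 and Gabra5, the kainate receptor genes Grik2 and Grik4, and the delta receptor gene Grid1. Those that rose were the metabotropic glutamate receptor genes Grm4 and Grm5. None of the 4 AMPA, 7 NMDA and 2 GABA-B genes passed the test, and neither did Gad1 or Gad2. Calls are at a Benjamini-Hochberg adjusted p under 0.05 over all 15698 genes tested with limma, with n = 4 libraries a group. All 40 genes passed the filter on low values. The deposited values carry the trace of an adjustment that makes SE and p-values too small, as set out below. With 1 residual degree of freedom fewer, Grik4 (limma adjusted p = 0.0699), Grm5 (0.0769) and Grm4 (0.0771) did not pass.

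Of the 40 genes 20.0% were called, against 6.66% of all tested genes. By direction, 15% fell where 3.78% of all genes did, and 5% rose where 2.87% of all genes did. The groups were fully separated, cKO on one side and controls on the other, in 14 of the 40 genes (35.0%), against 12.7% of all tested genes. The 8 called genes were all among those 14. The median log2 fold change of the 40 genes was 0.04, against 0.01 for all tested genes. Among the called genes, the fall of Gabrd alone exceeded 1 on the log2 scale.

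**Figure D1:**
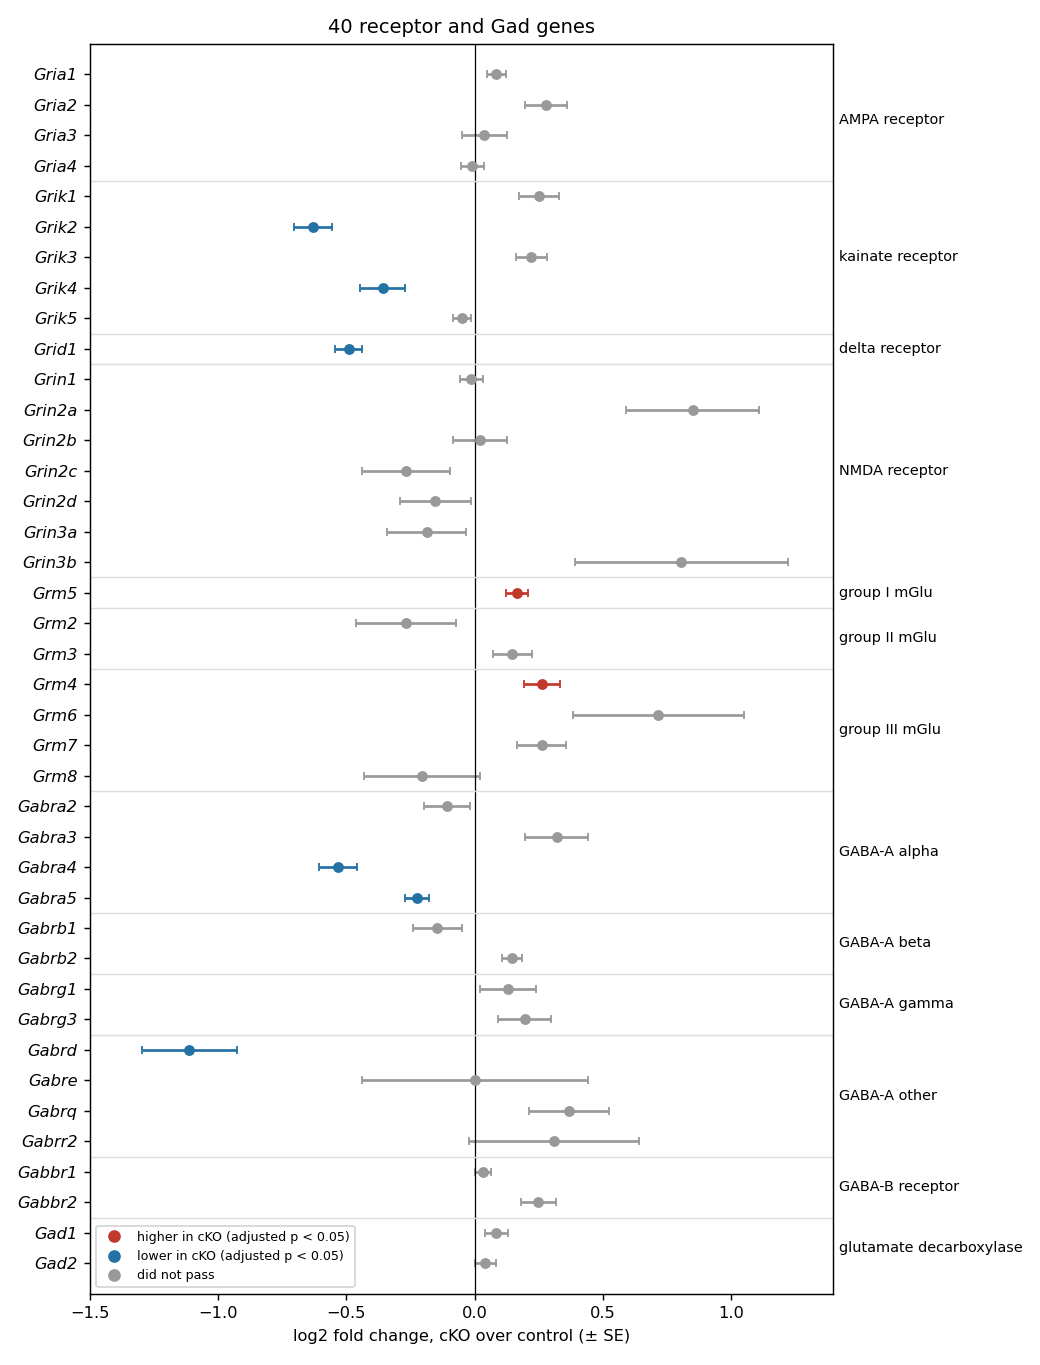
Log2 fold change of each of the 40 genes, cKO over control, on the horizontal axis, with bars of 1 SE (limma, n = 4 libraries a group) and genes down the page by receptor family. The 6 called falls (blue) reach -1.11 for Gabrd and the 2 called rises (red) are at 0.17 for Grm5 and 0.26 for Grm4, while genes with wide bars such as Grin3b and Gabre have values of only a few.

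Mean levels in the cKO ran from 0.0452 RPKM for Grm6 to 77.0 RPKM for Gria2. The highest per length were Gria2 (77.0 ± 7.41 RPKM in the cKO and 64.0 ± 7.87 in the controls, SD, n = 4), Gabbr1 (76.0 ± 0.802 and 74.7 ± 1.18), Gad1 (75.2 ± 2.12 and 71.4 ± 3.86) and Gad2 (68.5 ± 1.83 and 67.0 ± 2.48). Gabbr1 lay above Gad2 in every library of both groups, while the ranges of Gria2, Gabbr1 and Gad1 overlapped in each group. Below them came Grik5 at 54.3 ± 1.66 RPKM in the cKO and 56.5 ± 1.66 in the controls. At the other end, Grin3b, Grm6, Gabre and Grin2a averaged 0.105 RPKM or less in both groups. Summed over the 40 genes the level was 630 to 671 RPKM in the cKO and 616 to 647 in the controls.

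**Figure D2:**
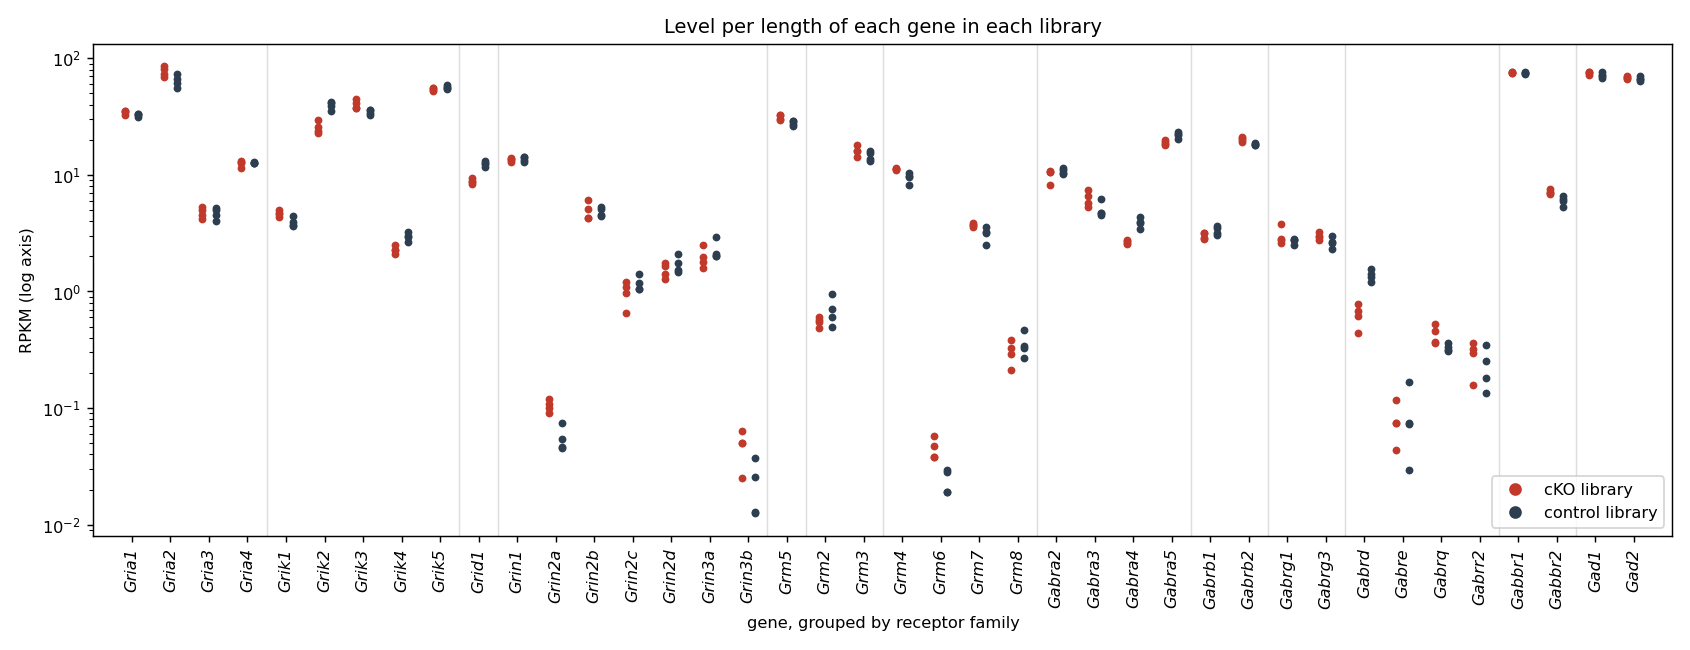
RPKM of each gene in each library on a log axis, with the 4 cKO libraries (red) left of the 4 control libraries (dark) for every gene, grouped by receptor family. Gria2, Gabbr1, Gad1 and Gad2 stand highest, and the separation of cKO from control is visible for Grik2, Grid1, Gabra4 and Gabrd.

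Of the 5 kainate receptor genes Grik2 and Grik4 fell. Grik1, Grik2 and Grik3 encode subunits that can form a channel by themselves, whereas Grik4 and Grik5 encode subunits that must assemble with them. Grik2 (chromosome 10, 49094833 to 49788766, minus strand, GRCm38) had values of 3478, 3008, 2789 and 2735 in the cKO, against 4836, 4220, 4611 and 4873 in the controls. Every cKO library lay below every control library, by 35.2% between the means (log2 fold change -0.63 ± 0.07 SE, limma adjusted p = 0.000242). Grik4 (chromosome 9, 42518135 to 42944493, minus strand) was at 192, 211, 178 and 195 in the cKO and at 222, 278, 249 and 249 in the controls. The groups did not overlap here either, though cKO replicate 2 and control replicate 1 lay close (-0.36 ± 0.09, adjusted p = 0.0311). Grik5, the most abundant kainate gene per length, did not pass, with values of 5200, 4934, 5145 and 4940 in the cKO and 5089, 5333, 5105 and 5396 in the controls (-0.05 ± 0.04, adjusted p = 0.513). Grik3 and Grik1 had positive fold changes of 0.22 ± 0.06 (adjusted p = 0.0566) and 0.25 ± 0.08 (adjusted p = 0.0891) that did not pass.

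As a share of the summed kainate RPKM, Grik2 made up 20.0 ± 1.4% in the cKO and 28.7 ± 1.7% in the controls, and Grik3 31.7 ± 1.6% in the cKO and 25.2 ± 1.0% in the controls (SD, n = 4). The order of these 2 genes is thus opposite in the groups: Grik3 ranks above Grik2 in the cKO and below it in the controls. The sum itself was 127 ± 6.68 RPKM in the cKO and 138 ± 3.92 in the controls. The Grik2 call held under all 20 alternative settings (adjusted p at most 0.00689). Grik4 no longer passed without cKO replicate 1, 3 or 4 or control replicate 2, 3 or 4 (adjusted p from 0.0606 to 0.0990), nor with 1 residual degree of freedom fewer (0.0699). Grik3 passed without cKO replicate 2 (adjusted p = 0.0469) or 3 (0.0480), and Grik1 without control replicate 2 (0.0199).

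The region around the annotated start of Grik2 is shown because Grik2 is the kainate gene whose fall was clearest. RefSeq gives it at chr10:49788705-49789004 on the minus strand (GRCm38.p6), 250 bases before the start in lower case and the first 50 transcribed bases in capitals, 5′ to 3′.
Grik2: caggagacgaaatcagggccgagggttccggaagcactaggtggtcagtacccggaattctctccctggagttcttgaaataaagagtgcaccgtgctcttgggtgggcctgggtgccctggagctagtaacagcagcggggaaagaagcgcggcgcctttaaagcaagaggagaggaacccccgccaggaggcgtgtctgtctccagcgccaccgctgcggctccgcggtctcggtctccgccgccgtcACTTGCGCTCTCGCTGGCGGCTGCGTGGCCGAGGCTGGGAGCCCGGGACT
It holds 26 CG dinucleotides, against a median of 7 over 32851 promoter windows of the same length, and no TAAT, the core letters that many homeodomain proteins read, on either strand. Of all windows 58.0% hold TAAT. The absence of these letters from the window says nothing of more distant sequence.

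Among genes of the delta receptors, which bind cerebellin proteins across the synapse rather than acting as ordinary glutamate channels, Grid1 fell. Grid1 (chromosome 14, 34820108 to 35583379, plus strand) had values of 726, 692, 783 and 740 in the cKO, against 1031, 980, 1101 and 1025 in the controls. The groups were well apart, with the cKO mean 28.9% lower (log2 fold change -0.49 ± 0.05 SE, limma adjusted p = 0.000137), the smallest adjusted p among the 40 genes. This call too held under all 20 alternatives (adjusted p at most 0.00357).

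No AMPA or NMDA receptor gene passed the test. Gria2, whose subunit limits the calcium permeability of AMPA receptors, had values of 16004, 15161, 12924 and 13849 in the cKO and 13550, 11564, 10402 and 12293 in the controls. The groups overlapped through cKO replicate 3 and control replicate 1 (log2 fold change 0.28 ± 0.08 SE, limma adjusted p = 0.0699). Without either of these libraries Gria2 passed, at adjusted p = 0.0460 and 0.0287. It also passed with the replicate number fitted as a block (0.0015), though these numbers are not known to pair the libraries. Gria1, Gria3 and Gria4 had fold changes between -0.01 and 0.09. Gria2 made up 59.7 ± 1.6% of summed AMPA RPKM in the cKO and 56.0 ± 2.5% in the controls.

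Among NMDA receptor genes, the obligatory subunit gene Grin1 was at 1419, 1440, 1483 and 1378 in the cKO and at 1397, 1516, 1382 and 1481 in the controls, which overlap throughout (log2 fold change -0.01 ± 0.04 SE, adjusted p = 0.915). Grin2b, the glutamate-binding subunit gene typical of the embryonic forebrain, was at 1113, 768, 781 and 936 in the cKO and at 904, 835, 820 and 954 in the controls (0.02 ± 0.11, adjusted p = 0.950). It made up 65.1 ± 3.9% of the summed Grin2 RPKM in the cKO and 62.3 ± 2.7% in the controls. Grin2a, which in forebrain increases after birth, was near the bottom of the table, with values of 11, 13, 10 and 12 in the cKO and 8, 5, 6 and 5 in the controls. Its groups did not overlap, but at these values it did not pass (0.85 ± 0.26, adjusted p = 0.0811). Grin2c, Grin2d and Grin3a had fold changes between -0.27 and -0.15, and Grin3b was at 5 or below in every library.

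Of the 7 metabotropic glutamate receptor genes described 2 rose, and 5 had positive fold changes. Grm5 (chromosome 7, 87584168 to 88134907, plus strand), a receptor coupled to phospholipase C and the most abundant of the 7 per length, had values of 6690, 6162, 6733 and 6142 in the cKO and 5868, 5507, 5651 and 5912 in the controls. All cKO libraries lay above all controls, by a narrow margin (log2 fold change 0.17 ± 0.04 SE, limma adjusted p = 0.0387). Grm4 (chromosome 17, 27422387 to 27521403, minus strand), which inhibits adenylyl cyclase, was at 1189, 1200, 1170 and 1219 in the cKO and 845, 1106, 1035 and 1013 in the controls (0.26 ± 0.07, adjusted p = 0.0481). Control replicate 1, the library high in choroid plexus markers, was the lowest of its group, and without it the Grm4 fold change was 0.19 (adjusted p = 0.0399). Grm3, an abundant receptor of the adenylyl cyclase-inhibiting kind, was at 1550, 1203, 1373 and 1385 in the cKO and 1336, 1139, 1189 and 1305 in the controls, which overlap (0.15 ± 0.08, adjusted p = 0.336). Grm7 did not overlap between groups but did not pass (0.26 ± 0.10, adjusted p = 0.150). Grm2 and Grm8 had fold changes of -0.27 and -0.20, and Grm6, the receptor of retinal bipolar cells, was at 6 or below in every library.

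Both metabotropic calls sat near the threshold. Leaving out single libraries ended each of them 6 times out of 8: Grm5 without cKO replicate 1 or 3 or any 1 control (adjusted p from 0.0550 to 0.105), and Grm4 without any 1 cKO library or control replicate 3 or 4 (0.0712 to 0.126). In the authors' deposited table they had adjusted p of 0.174 for Grm5 and 0.0770 for Grm4, and on RPKM 0.0926 and 0.0586. With either other scaling Grm5 did not pass (0.0785 and 0.0738).

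Of the 12 GABA-A receptor genes described 3 fell, Gabrd, Gabra4 and Gabra5, and the other 9 did not pass. The delta, alpha4 and alpha5 subunits are known from receptors outside synapses. Gabrd (chromosome 4, 155384980 to 155398112, minus strand) had low values of 28, 20, 31 and 36 in the cKO, against 69, 55, 65 and 60 in the controls. Its cKO mean was 53.8% lower, the largest relative fall among the called genes (log2 fold change -1.11 ± 0.18 SE, limma adjusted p = 0.00324). Gabra4 (chromosome 5, 71569749 to 71658308, minus strand) was at 269, 260, 277 and 256 in the cKO and 424, 343, 394 and 380 in the controls. The cKO libraries lay close together and well below the lowest control, control replicate 2 (-0.53 ± 0.07, adjusted p = 0.000945). Both calls held under every alternative in which the gene was tested, with adjusted p at most 0.0134 for Gabrd and 0.0180 for Gabra4.

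Gabra5 (chromosome 7, 57407672 to 57510059, minus strand) was at 18.8 ± 0.878 RPKM in the cKO and 22.1 ± 1.23 in the controls (SD, n = 4), above the other alpha genes described here. Its values were 1184, 1228, 1290 and 1173 in the cKO and 1483, 1339, 1475 and 1398 in the controls (log2 fold change -0.22 ± 0.05 SE, limma adjusted p = 0.0155). The groups did not overlap, with the cKO mean 14.4% lower. Gabra5 missed the threshold without cKO replicate 4 (adjusted p = 0.0569).

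**Figure D3:**
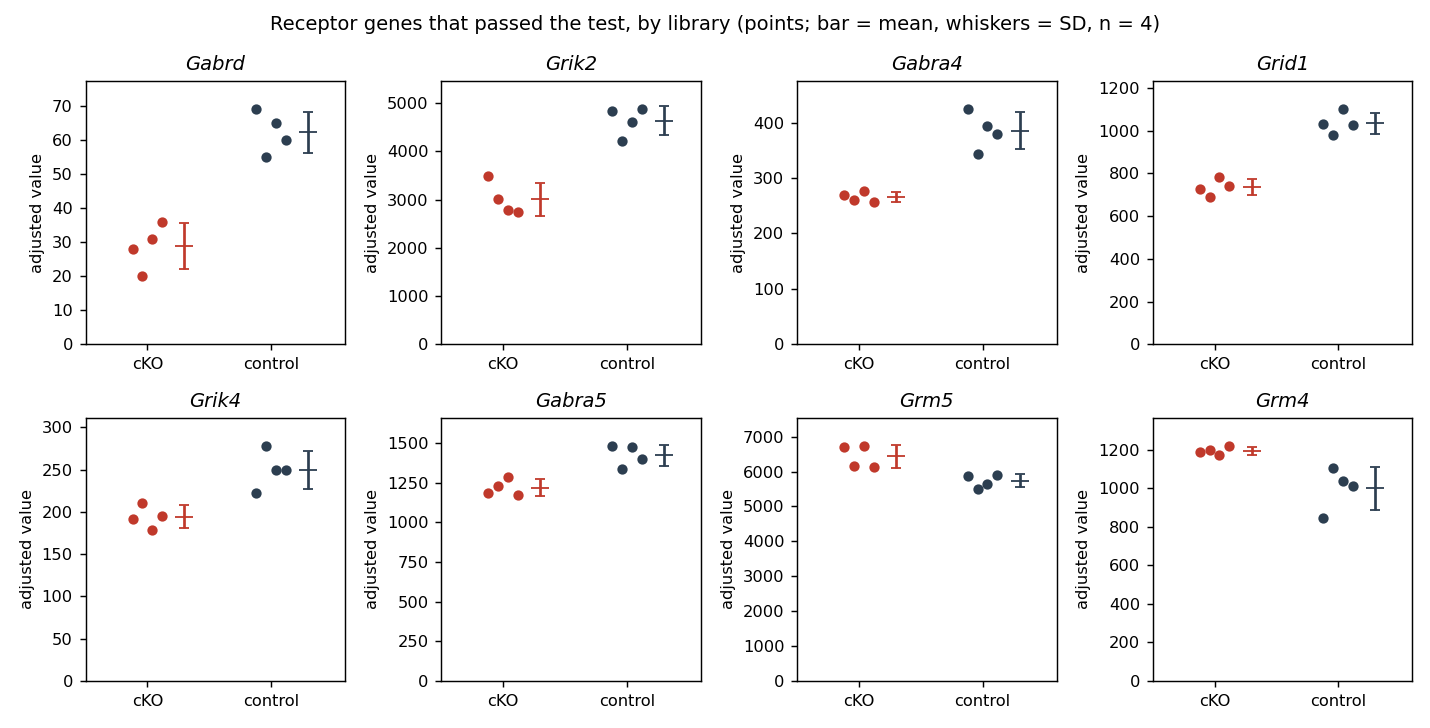
Adjusted value of each of the 8 called genes in the 4 cKO libraries (red, left) and the 4 control libraries (dark, right), with mean and SD beside the points and a vertical axis from 0 in each panel. No panel has overlap between the groups, and the distance between them is widest, relative to the level, for Gabrd, Grik2, Gabra4 and Grid1.

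Among the 9 of these 12 GABA-A genes that did not pass was Gabrb2, a beta subunit gene on chromosome 11. It had values of 3929, 3531, 3674 and 3886 in the cKO and 3341, 3391, 3378 and 3459 in the controls. All cKO libraries lay above all controls, but the test was narrowly missed (log2 fold change 0.14 ± 0.04 SE, limma adjusted p = 0.0518). Gabrb2 passed without cKO replicate 2 (0.0252) and with the replicate number fitted as a block (0.0424). It also passed with a pseudocount of 16 (0.0482) and with a minimum value of 100 (0.0496). GABA-A genes lie in clusters, and of the 4 on chromosome 5 Gabra4 alone was called. Its neighbours there had fold changes of -0.15 ± 0.10 for Gabrb1 (adjusted p = 0.474), -0.11 ± 0.09 for Gabra2 (0.584) and 0.13 ± 0.11 for Gabrg1 (0.592). On the X chromosome none of 3 passed, with 0.32 ± 0.12 for Gabra3 (adjusted p = 0.178) and 0.37 ± 0.16 for Gabrq (0.227). Gabra3 passed without control replicate 2 (adjusted p = 0.0354), its highest control library. Gabrg3 was at 0.20 ± 0.10 (adjusted p = 0.359), and Gabre and Gabrr2 were low, at 16 or below in every library.

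Gabra4 and Gabrb1 start head to head on opposite strands, with first exons that overlap, and Gabra5 shares exon sequence with the gene model Gm9962 on the other strand. No source used here says whether reads were counted by strand, so those from such overlaps cannot be assigned with certainty. The same holds for Neto1 and Kctd16, which share exon sequence with unlisted models on the other strand. Grid1 and Grik4 share exon sequence with the unlisted models Gm27617 and Gm24420 on their own strand, where counting by strand could not separate the reads. The start regions of the alpha genes that fell are shown because both genes share exon sequence with a model on the opposite strand. Both are RefSeq windows of GRCm38.p6 on the minus strand, chr5:71658259-71658558 for Gabra4 and chr7:57510010-57510309 for Gabra5, with the first 50 transcribed bases in capitals.
Gabra4: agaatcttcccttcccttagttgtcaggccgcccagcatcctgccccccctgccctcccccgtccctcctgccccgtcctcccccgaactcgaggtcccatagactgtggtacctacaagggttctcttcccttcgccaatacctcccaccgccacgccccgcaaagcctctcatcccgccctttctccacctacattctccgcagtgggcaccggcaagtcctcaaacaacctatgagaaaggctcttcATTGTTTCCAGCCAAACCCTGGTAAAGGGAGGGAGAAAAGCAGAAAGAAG
Gabra5: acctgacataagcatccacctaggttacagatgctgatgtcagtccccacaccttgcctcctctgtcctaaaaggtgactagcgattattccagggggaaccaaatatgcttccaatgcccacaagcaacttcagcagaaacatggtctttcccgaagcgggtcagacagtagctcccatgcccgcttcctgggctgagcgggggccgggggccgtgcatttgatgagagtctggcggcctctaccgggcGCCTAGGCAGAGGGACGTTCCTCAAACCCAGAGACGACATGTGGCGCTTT
The Gabra4 window has 12 CG dinucleotides and no TAAT on either strand. The Gabra5 window has 13 CG dinucleotides and a single TAAT, on the opposite strand, beginning 166 bases before the start. RefSeq windows were at hand for 4 of the 8 called genes. That of Grik4, not printed here, has 42 CG dinucleotides and no TAAT on either strand.

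Neither GABA-B receptor gene passed. Gabbr1, which encodes the GABA-binding subunit, was at 8365, 8181, 8289 and 8281 in the cKO and 7806, 8254, 8111 and 8189 in the controls, which overlap (log2 fold change 0.03 ± 0.03 SE, limma adjusted p = 0.630). Gabbr2, the subunit that couples to the G protein, was at 663, 672, 735 and 696 in the cKO and 570, 645, 519 and 598 in the controls. Its groups did not overlap, yet it missed the threshold (0.25 ± 0.07, adjusted p = 0.0525) and passed without control replicate 2 (0.02).

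Gad1 and Gad2 showed no call. Gad1 had values of 7214, 7356, 6943 and 7469 in the cKO and 6597, 7391, 6489 and 6893 in the controls (log2 fold change 0.08 ± 0.05 SE, limma adjusted p = 0.353). Gad2 was at 9390, 9125, 9154 and 9759 in the cKO and 8561, 9181, 9620 and 9022 in the controls (0.04 ± 0.04, adjusted p = 0.657). The groups overlapped for both genes, which encode the enzymes that mark GABA neurons. Their cKO means were 1.06 and 1.03 times the control means, and the absence of a call sets no bound on the difference.

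Of 68 partner genes of these receptors (auxiliary subunits, scaffolds, transporters and enzymes), 4 fell and 2 rose, or 8.82%, close to the 6.66% of all genes. Neto1, an auxiliary subunit of kainate receptors, fell as well. It had values of 1953, 1776, 1890 and 1726 in the cKO, against 3508, 3114, 3601 and 3498 in the controls, the cKO libraries being far below every control (log2 fold change -0.90 ± 0.05 SE, limma adjusted p = 1.75e-06). Its paralogue Neto2 was at 40.0 ± 1.04 RPKM in the cKO and 41.2 ± 0.638 in the controls, where Neto1 was at 21.4 ± 1.29 and 40.3 ± 2.78 (SD, n = 4), and did not pass (-0.04 ± 0.03, adjusted p = 0.596). Among 14 AMPA and kainate auxiliary genes the other call was a rise of Shisa9, an AMPA receptor auxiliary protein, at 832, 887, 856 and 946 in the cKO and 661, 731, 569 and 646 in the controls (0.44 ± 0.07, adjusted p = 0.00330). The Neto1 and Shisa9 calls held under all 20 alternatives.

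On the inhibitory side, 1 of 10 postsynaptic genes fell, the adhesion gene Slitrk3 (852 ± 58.4 in the cKO and 1005 ± 40.6 in the controls, SD, n = 4; log2 fold change -0.24 ± 0.06 SE, limma adjusted p = 0.0246), and gephyrin (Gphn), the main scaffold there, was at 0.06 ± 0.04 (adjusted p = 0.504). Kctd16, a GABA-B auxiliary subunit, fell at very low values, with 11, 7, 11 and 10 in the cKO and 33, 18, 23 and 24 in the controls (-1.23 ± 0.25, adjusted p = 0.0100), and the other 3 genes of that list did not pass. The chloride exporter gene Slc12a5, on which the hyperpolarizing action of GABA depends, was at 2283, 2249, 2265 and 2265 in the cKO and 1877, 2122, 1718 and 2002 in the controls (0.24 ± 0.06, adjusted p = 0.0284). Its cKO values were nearly equal and above every control, whereas the importer gene Slc12a2 did not pass (0.10 ± 0.07, adjusted p = 0.530). Slitrk3 did not pass without cKO replicate 2, 3 or 4 or control replicate 3 or 4 (adjusted p from 0.0564 to 0.0941), nor did Slc12a5 without cKO replicate 2, 3 or 4 or control replicate 1 (0.0647 to 0.0770). With 1 residual degree of freedom fewer Slitrk3 also missed the threshold (limma adjusted p = 0.0502). In the authors' deposited table the adjusted p was 0.0577 for Slitrk3 and 0.0702 for Slc12a5. Slc12a5 did not pass on RPKM (0.0551), and neither gene passed without the mean trend (0.0654 for Slitrk3 and 0.0966 for Slc12a5).

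Of 8 genes for glutamate loading, clearance and synthesis, Slc17a8 fell. It encodes a vesicular glutamate transporter of striatal cholinergic interneurons, and was at 13, 4, 7 and 11 in the cKO and 59, 51, 38 and 67 in the controls (log2 fold change -2.57 ± 0.32 SE, limma adjusted p = 0.000424). None of 20 excitatory scaffold and signalling genes passed, with fold changes between -0.19 and 0.18, and none of 4 cerebellins or of 6 genes for GABA loading, uptake and breakdown. In these 3 lists the smallest adjusted p were 0.0552 for Camk2b and 0.0557 for Shank3, both lower in the cKO.

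**Figure D4:**
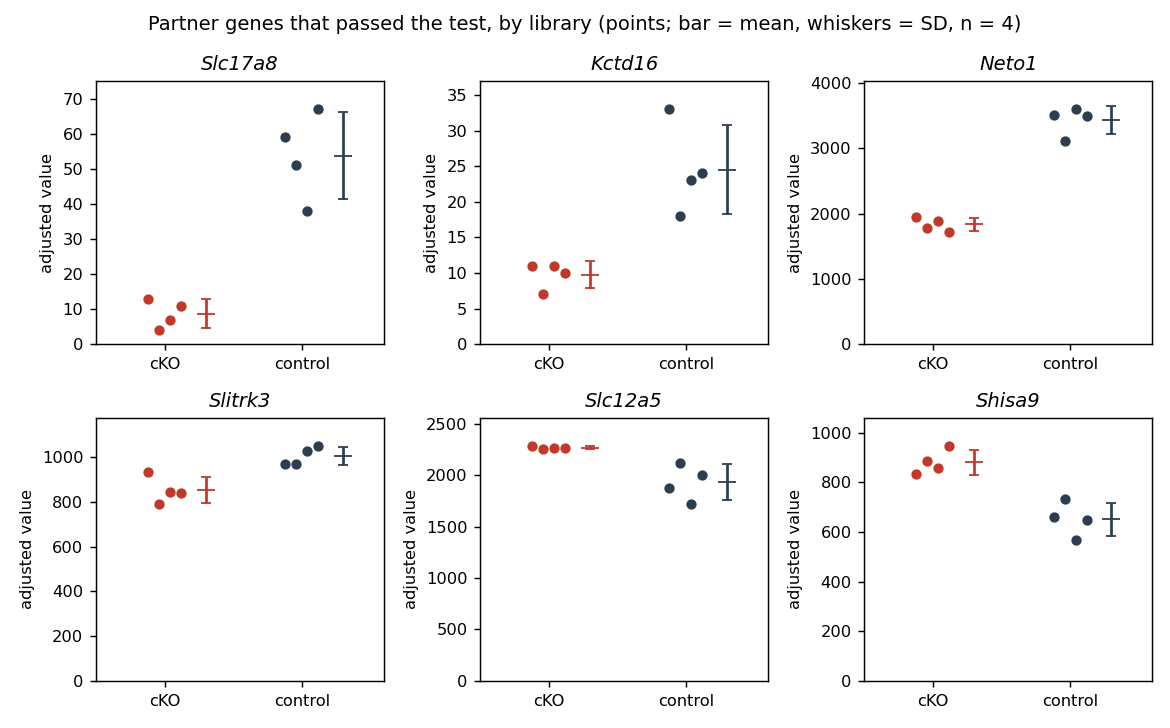
Adjusted value of the 6 called partner genes in the 4 cKO libraries (red, left) and 4 control libraries (dark, right), with mean and SD beside the points and axes from 0. Neto1 combines a high level with a wide gap between groups, while Slc17a8 and Kctd16 are at values below 70 in every library.

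Fitted to the 6 libraries left without cKO replicate 4 and control replicate 3, the pair lowest in pallial markers, 4 of the 8 calls remained: Grik2 (log2 fold change -0.59, limma adjusted p = 0.00615), Grid1 (-0.47, 0.00357), Gabra4 (-0.50, 0.0180) and Gabrd (-1.21, 0.0126). The other 4 kept their sign with adjusted p from 0.106 for Grm5 to 0.169 for Grm4. Of the partners, Neto1 (-0.85, 0.00016), Slc17a8 (-2.86, 0.0026) and Shisa9 (0.34, 0.0219) stayed called. In that fit 610 of all genes were called, against 1045 with 8 libraries, and 659 were called without control replicate 4 alone.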

How the data were processed

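Polyadenylated RNA of 8 LGE libraries was sequenced as single reads with a directional kit, per the labels. STAR, featureCounts, edgeR and mm10 are named in the submitters' processing notes, without versions or roles. The deposited columns named raw hold whole numbers that are a score rather than counts: their upper quartiles were 1624 to 1635, and 1 direction of variation within groups was nearly absent (0.000241 per gene as root mean square of natural-log values, against 0.0435 for the next). This is the trace of an adjustment read from the values. It makes replicate spread, SD and SE too small, and with them the p-values and adjusted p. Depth is unknown and no counting interval is given. The RPKM columns are these values divided by gene length and library total, as deposited by the authors. The authors' deposited log2 fold changes and p-values served as an alternative, and their sign is cKO over control.

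Values were tested as log2(value + 1), on which fold changes of low genes are understated, for genes at 1 or more in at least 4 libraries (15698 genes), with limma 3.58.1 in R 4.3.3 (moderated test with a mean trend, Benjamini-Hochberg adjusted p, threshold 0.05, data.table version 1.17.8). Of the genes matching the symbol rule, 5 are not reported here, and counts and sums over the family leave them out. Every other one is named. Those called, or highest per length in a family, have values for each library, except that the GABA-A gamma genes are given by fold change only. Of the partner lists the called genes are named besides a few for comparison. The genes and lists were chosen with earlier results of these data known. Coordinates are from GENCODE for GRCm38, the assembly of mm10, in which all 40 symbols were found. Alternatives were other scalings, RPKM, pseudocounts, filters, no trend, 1 residual degree of freedom fewer, a replicate block, the authors' table, 6 libraries, and each library left out. The procedure was tested on simulated data.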

Additional observations from a re-analysis of the deposited data

Results flagged for a closer look

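Within the groups of 4 libraries, 4 of 92 sets of values had a library whose gap to its nearest neighbour took most of the range (Dixon's ratio past its 95% critical value, on the log2 scale), and chance gives about 1 in 20. In cKO replicate 3 Gria4 was at 1716, where its group otherwise had 1918 to 1947 (ratio 0.881), and Gabra2 at 470 in cKO replicate 2 against 606 to 629 (0.872). Control replicate 2 was high for Grin3a, at 553 against 366 to 386 (0.871), and for Gabra3, at 561 against 404 to 426 (0.839).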

How the results depend on the processing

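No call reversed its sign under the 20 alternatives, and 4 of the 8 receptor calls (Grik2, Grid1, Gabra4 and Gabrd) held under each one in which the gene was tested. Scaling moved the median of all genes by at most 0.009 on the log2 scale. The cause of the other changes was not tested, and fits that leave libraries out also have smaller samples. Leaving out 1 library gave 659 to 959 called genes in all, 0 to 4 receptor rises, 4 to 6 receptor falls, 1 to 2 partner rises and 3 to 7 partner falls. With the low-pallial pair set aside, 610 genes were called, with 0 receptor rises and 4 falls, and 1 partner rise and 2 falls. Receptor rises numbered 1 with either other scaling, and 0 with RPKM, with 1 residual degree of freedom fewer (749 genes in all, with 5 receptor falls) and in the authors' table. Partner rises numbered 1 with RPKM, without the trend and in the authors' table. Partner falls numbered 2 with a minimum value of 100, which leaves out Slc17a8 and Kctd16. In the adjusted values the replicate numbers showed no consistent pairing (correlation of deviations 0.41, -0.17, -0.49 and -0.77 for numbers 1 to 4, each over 5711 genes). Number 1 alone correlated best with its own partner. These values lack 1 direction of variation, so whether the libraries were paired before the adjustment cannot be told from them. With a replicate block, 1199 genes were called, with 5 receptor rises (Grm4, Grm5, Gria2, Grik3 and Gabrb2) and 6 falls, and 4 partner rises and 9 falls. Genes at values of a few (Grin3b, Grm6, Gabre) limit what can be seen of them, and depth is unknown.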
